A study of Mus musculus with 2 samples.

Results

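Accessible chromatin was mapped around 6 genes that encode transcription factors of early, resting or persisting T cells: Tcf7, which encodes TCF1, Lef1, Satb1, Myb, Tox and Tox2. The assay, ATAC-seq, uses the transposase Tn5 to cut and tag DNA that nucleosomes leave exposed, and stretches rich in such cuts are called as peaks. A region was counted for a gene when it overlapped the gene body extended by 5 kb on either side, or when its nearest protein-coding transcript start lay in the gene and within 100 kb. By this rule 64 of the 29415 regions in the list of reproducible peaks belonged to the 6 genes, and no region was counted for more than 1 of them. The genes are a given list, with no threshold on the measured values.

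The cells were regulatory T cells (Treg cells) that had experienced inflammation, taken at 6 months of age from an adult male whose strain is given as Foxp3CreERT2 x Rosa26YFP. The labels trace them to a hematopoietic cell of bone marrow origin. In such mice a Cre recombinase that tamoxifen activates is made from the Foxp3 gene, and a YFP reporter at the Rosa26 locus marks the cells in which Cre has acted; how and when Cre was induced and how the cells were sorted is not stated in the labels. Both samples are technical repeats of biological replicate 1 and make up 1 group of 2 libraries, so there was no resting or untreated group to compare with and no test between conditions. The peak lists are the same for both samples and were taken to combine the libraries, and no column names a library, so no value below carries an SD or an n of animals. One list also ranks 2 peak sets against each other, and whether these sets are the libraries or splits of pooled reads is not stated; reproducible here means passing that ranking.

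Of 6 markers of T and Treg cells, 5 had an accessible promoter (Cd3e, Cd3g, Foxp3, Il2ra and Ctla4), and Cd4 had 1 region away from its start. None of the 12 markers of B, myeloid, erythroid, CD8 and NK cells had an accessible promoter, and Cd79a, a B cell gene with 3 regions, was the single one with any region. Read counts are not in the lists, so the depth of the libraries is unknown and a missing region does not show that chromatin was closed.

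TCF1 and LEF1 are closely related proteins that bind DNA through an HMG box, bend it, and recruit either beta-catenin or Groucho-family (TLE) corepressors. They direct T cell development and are high in naive, central memory and stem-like T cells, and their levels fall as T cells become effectors. SATB1 organises chromatin loops in thymocytes and takes part in founding the Treg programme, MYB keeps progenitors and some effector Treg cells in a renewing state, and TOX and TOX2 are HMG-box proteins known from thymic CD4 cell development, follicular helper T cells and chronically stimulated T cells.

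The sequence at the highest summit of each locus is shown first, because it marks the region with the greatest fold enrichment at that locus. Each is the 101 bp centred on the summit, on the plus strand of GRCm38 (mm10), and capitals mark every match to 1 of 16 consensus strings on either strand.
Tcf7 chr11:52299768-52299868: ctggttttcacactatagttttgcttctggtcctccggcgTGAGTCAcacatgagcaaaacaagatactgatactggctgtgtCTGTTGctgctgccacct
Lef1 chr3:131208664-131208764: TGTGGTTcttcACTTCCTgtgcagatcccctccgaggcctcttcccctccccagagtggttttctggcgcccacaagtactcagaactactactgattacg
Satb1 chr17:51904081-51904181: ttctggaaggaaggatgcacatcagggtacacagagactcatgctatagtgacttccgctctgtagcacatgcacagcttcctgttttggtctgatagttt
Myb chr10:21186837-21186937: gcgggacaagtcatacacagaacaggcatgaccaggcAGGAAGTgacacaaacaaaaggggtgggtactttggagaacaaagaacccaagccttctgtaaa
Tox chr4:6682106-6682206: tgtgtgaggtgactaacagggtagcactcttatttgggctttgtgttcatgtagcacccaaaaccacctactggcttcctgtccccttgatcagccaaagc
Tox2 chr2:163229209-163229309: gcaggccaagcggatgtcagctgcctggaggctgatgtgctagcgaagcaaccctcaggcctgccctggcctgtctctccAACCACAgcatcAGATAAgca
The letters searched for the TCF/LEF family were CTTTGA, and those for MYB proteins were CAACNG. RUNX factors, which act throughout the T cell lineage, were searched as TGTGGTT and the ETS family as AGGAAGT. Strings for factors that follow T cell receptor signals were TGANTCA for AP-1, TGGAAA for NFAT, GGGANTTCC for the NF-kB family and AAAGGTCA for the NR4A receptors. The Maf element, which Bach proteins also bind, was written TGCTGA, and the forkhead string was TGTTTAC. The others were CAGGTG for the E-box proteins, CACACCC for the KLF factors, AGATAA for the GATA family, GAAANNGAA for the IRF family, TTCNNNGAA for the STAT proteins and CCANNAGGG for the insulator protein CTCF. In the Tcf7 summit the capitals are an AP-1 and a MYB string, in Lef1 a RUNX and an ETS string, in Myb an ETS string, and in Tox2 a RUNX and a GATA string. The tallest regions of Satb1 and Tox held none of the 16 and are in lower case throughout. None of the 6 held a TCF/LEF string.

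The TCF/LEF string occurred in 7 other regions, which are shown because TCF1 and LEF1 are themselves encoded at these loci. These windows were selected for printing after the matches were known, and capitals again mark all matches.
Tcf7 chr11:52314310-52314410: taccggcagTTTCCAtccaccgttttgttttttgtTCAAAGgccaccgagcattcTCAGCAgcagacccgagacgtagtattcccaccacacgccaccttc
Tcf7 chr11:52309565-52309665: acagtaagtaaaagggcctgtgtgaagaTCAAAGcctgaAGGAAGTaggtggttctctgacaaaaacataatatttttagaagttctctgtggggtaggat
Lef1 chr3:131106103-131106203: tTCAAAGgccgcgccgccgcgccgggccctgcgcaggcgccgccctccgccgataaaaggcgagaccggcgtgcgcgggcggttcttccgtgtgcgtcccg
Lef1 chr3:131200025-131200125: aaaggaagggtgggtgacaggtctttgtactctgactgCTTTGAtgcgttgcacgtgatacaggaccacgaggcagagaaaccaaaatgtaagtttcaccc
Lef1 chr3:131160335-131160435: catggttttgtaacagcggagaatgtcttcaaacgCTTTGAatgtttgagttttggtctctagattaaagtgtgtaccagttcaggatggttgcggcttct
Myb chr10:21224326-21224426: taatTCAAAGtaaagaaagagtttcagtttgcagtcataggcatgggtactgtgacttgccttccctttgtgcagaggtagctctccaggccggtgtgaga
Tox chr4:6941162-6941262: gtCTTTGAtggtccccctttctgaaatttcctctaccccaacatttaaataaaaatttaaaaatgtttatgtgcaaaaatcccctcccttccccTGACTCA
Their capitals include CTTTGA or its reverse complement TCAAAG, in 2 regions of Tcf7, 3 of Lef1, 1 of Myb and 1 of Tox. A Maf string and an NFAT string accompanied it in the first Tcf7 window, an ETS string in the second and an AP-1 string in the Tox window. A match describes letters in a window and does not show that a protein binds there.

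Every one of the 6 genes had more regions than most genes. The counts were 20 for Tox, 16 for Lef1, 8 for Tcf7, 8 for Satb1, 7 for Tox2 and 5 for Myb. Each gene thus had 5 or more regions, a number that 1680 of 21853 protein-coding genes (7.69%) reached, and the median over all genes was 1. Tox was among the 16 genes (0.0732%) with 20 or more, and 13 genes had more regions than it. Long genes and genes with distant neighbours can collect more regions under the rule, so the counts were also set against the length of sequence from which each gene could draw. Per 100 kb of that sequence Tcf7 had 10.7 regions, Lef1 7.31, Tox 4.88, Myb 3.92, Satb1 3.6 and Tox2 3.28. By this density the order changed: Tcf7, the shortest of the 6 genes, came first with more than 94.23% of genes, and Tox2 came last with more than 66.24%.

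**Figure D1:**
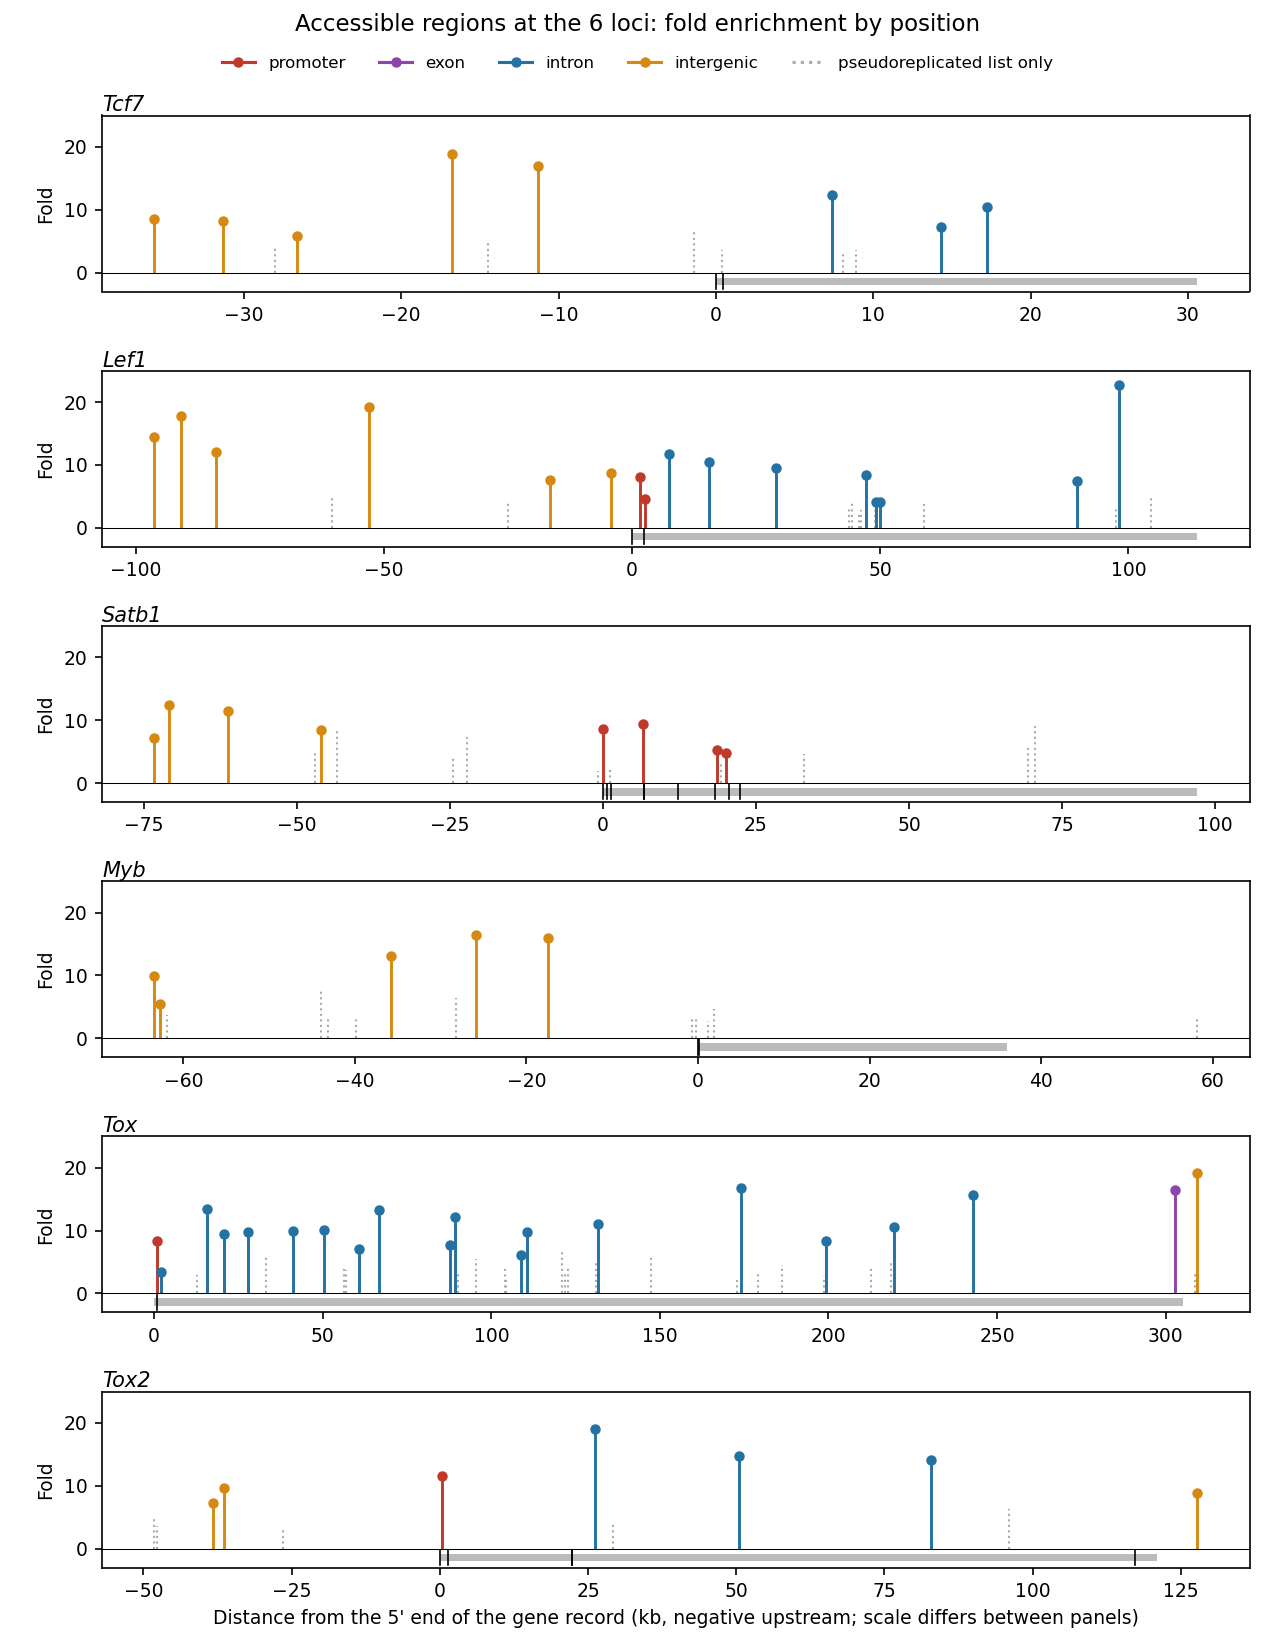
Fold enrichment over background (linear, vertical axis) of each region against its distance from the 5' end of the gene (kb, horizontal axis, negative upstream, with a scale of its own in each panel). Coloured stems are the 64 reproducible regions by class. Dotted grey stems (pseudoreplicated list only in the key) are the 63 regions of that list that overlapped no thresholded region. The grey bar is the gene and black ticks are its protein-coding starts. Myb has coloured stems only upstream of the gene, Tox has nearly all of its stems inside the gene, and Tcf7 has no coloured stem at its starts.

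Promoters were accessible at 4 of the 6 genes, Lef1, Satb1, Tox and Tox2, where an accessible promoter means a region within 1000 bp of any protein-coding start. Over all protein-coding genes the share was 10861 of 21853 (49.7%), and 4 of 6 is not read as a difference from it. Tcf7 and Myb had no such region. The 5' end of Tcf7 is rich in CpG (observed over expected CpG 0.862, in group 9 of 10 groups of genes ranked upward by this measure), and so is that of Myb (0.849, the same group). In that group 84.4% of genes had a promoter region, so Tcf7 and Myb were among the minority of this group without one. Lef1 and Satb1 (0.663 and 0.686) were in group 7, Tox2 (0.756) in group 8 and Tox (0.457) in group 5, where 74.9%, 79.7% and 44.5% of genes had a promoter region. These ratios hold for the 5' end of the gene record and can differ at a transcript start. At the 1 protein-coding start of Tox the ratio was 0.764, and at the downstream start of Tcf7 0.634. For Myb it changed little, to 0.84 at its other start.

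Tcf7 (ENSMUSG00000000782.15) lies on the minus strand of chromosome 11 at chr11:52252371-52283014 and is 30.6 kb long, with 8 regions. Its tallest region, chr11:52299605-52300160, stood 16.8 kb upstream of the gene with a fold enrichment of 18.9 over background. A second, chr11:52293987-52294622, followed 11.3 kb upstream at 17. These were the 2 highest of the locus, and both lay between genes. Further upstream the values were lower: 5.9 at 26.6 kb, 8.23 at 31.3 kb and 8.56 at 35.7 kb, and the first 2 of these 3 carry the TCF/LEF strings shown above. Inside the gene all 3 regions were in intron 2 of the longest transcript, with folds of 12.4 at 7.4 kb from the 5' end, 7.25 at 14.3 kb and 10.4 at 17.2 kb. The first of them lay 484 bp from the start of A630014C17Rik, an antisense transcript, and the second 843 bp from the start of the lincRNA Gm26551. ATAC-seq has no strand, so accessibility at a shared site cannot be assigned to the gene or to its noncoding neighbour.

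The thresholded region nearest to a Tcf7 start was 6705 bp from the downstream start and 7148 bp from the upstream one. The less strict pseudoreplicated list held a region over the downstream start, chr11:52282473-52282690, with a fold of 3.67 and a −log10 p of 14.5. In the authors' ranking of 2 peak sets against each other, that peak had a −log10 p of 14.2 in the first and 3.16 in the second, and an global irreproducible discovery rate (IDR, the estimated share of irreproducible peaks among those ranked at least as high) of 0.357. The region chr11:52283946-52284576, with its summit 1.4 kb upstream of the gene, was stronger, with a fold of 6.64. Its near edge lay within 1000 bp of the upstream start, but it too was outside the thresholded list. The −log10 of its best global IDR was 1.13, against 0.45 for the peak over the downstream start. The downstream Tcf7 start was thus covered by a weak peak whose −log10 p differed between the ranked sets, while 8 regions away from it passed.

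Lef1 (ENSMUSG00000027985.14) lies on the plus strand of chromosome 3 at chr3:131110471-131224356, is 113.9 kb long and had 16 regions, more than 99.70% of genes. Its tallest, chr3:131208325-131209248 in intron 11 and 98.2 kb from the 5' end, had a fold of 22.7 and a −log10 p of 427. It was the highest of all 64 regions and the single one among them in the upper 10% of the whole list. Its nearest protein-coding start belongs to Hadh, a mitochondrial enzyme of fatty acid oxidation, as does that of the region in intron 8 (fold 7.45). Both are counted for Lef1 because they lie in its body. A group of 4 regions lay far upstream, with folds of 14.4 at 96.3 kb, 17.8 at 90.8 kb, 12.1 at 83.9 kb and 19.3 at 53.0 kb. The 12.1 was below the median of all regions, 13.1, and the other folds of this group were above it. Nearer to the gene 2 upstream regions were lower, 7.58 at 16.5 kb and 8.79 at 4.3 kb. The latter is in GC-rich sequence (76.2% G and C in 101 bp) and holds a TCF/LEF string at the edge of the window shown above.

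At Lef1 the main upstream start, used by 3 transcripts, had no region within 1000 bp. The nearest region began 1450 bp downstream of it, at chr3:131111921-131112833, with a fold of 8.03 and 3 summits. It covers the start of another transcript, at position 131112797. Its highest summit is 6 bp from the start of the antisense transcript Gm43352. A second and weaker region, chr3:131113077-131113381, had a fold of 4.51 and lay 410 bp downstream of that inner start. The promoter call for Lef1 thus rested on the inner start and would be lost if the 5' end of the gene record were the only start allowed. Intron 3 held 6 regions, whose folds declined from 11.8 at 7.5 kb and 10.4 at 15.6 kb to 9.58 at 29.1 kb and 8.38 at 47.2 kb. Close to the last of these were the 2 lowest of the locus, 4.16 and 4.07, and the lowest carries a TCF/LEF string.

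Satb1 (ENSMUSG00000023927.15) lies on the minus strand of chromosome 17 at chr17:51736187-51833290 and is 97.1 kb long, with 9 annotated protein-coding starts and 8 regions. Of the 8, 4 were promoter regions and 4 lay between 46.1 and 73.3 kb upstream, with none in the rest of the gene. At the 5' end chr17:51832278-51833525 had a fold of 8.57 and 4 summits. The region at the next cluster of starts, chr17:51826545-51826842, had 9.37 and was the highest of the 4. The 2 furthest into the gene, chr17:51814196-51814780 and chr17:51813095-51813771, had 5.25 and 4.81. The folds at these inner starts were below those at the 2 outer groups of starts. Of the 9 starts, 2 had no region within 1000 bp, at gaps of 5454 and 2176 bp. The upstream regions had folds of 8.46 at 46.1 kb, 11.4 at 61.2 kb, 12.4 at 70.8 kb and 7.2 at 73.3 kb. The highest fold at Satb1 was 12.4, the lowest such maximum of the 6 genes, and no region of Satb1 exceeded the median of all regions, 13.1.

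Myb (ENSMUSG00000019982.15) lies on the minus strand of chromosome 10 at chr10:21124935-21160984 and is 36.0 kb long. It had 5 regions, all upstream and outside the gene body extended by 5 kb. A body without any region is common, since 8796 of 21853 genes (40.3%) had none, but of those just 21 genes (0.0961% of all genes) had 5 or more regions further out. That count was made after the pattern at Myb was seen. The region nearest to the gene, chr10:21178274-21179153, was 17.5 kb upstream with a fold of 16. The highest, chr10:21186621-21187282, was 25.9 kb upstream with 16.5, and its summit lay 60 bp from the start of the lincRNA Gm33619. Beyond it a fold of 13.1 was found at 35.8 kb, and a pair of regions at 62.7 and 63.4 kb had 5.38 and 9.93. The median of the 5 folds was the highest of the 6 genes, and to 3 digits it was the same as that of all regions, 13.1. In the pseudoreplicated list, chr10:21160716-21161492 covered both Myb starts with a fold of 3.19, a −log10 p of 13.7 and a global IDR of 0.16. In intron 1, where transcription of Myb is known to pause in haematopoietic cells, that list held a broader region, chr10:21158158-21159453, with a fold of 4.6. Its −log10 p was 28.7. The −log10 of its best global IDR was 1.25, against 0.80 for the region over the starts. The body of Myb was thus without a region in the thresholded list only.

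Tox (ENSMUSG00000041272.11) lies on the minus strand of chromosome 4 at chr4:6686353-6991557 and is 305.2 kb long. It was the opposite of Myb in layout: 19 of its 20 summits lay in the gene and none upstream of it. The promoter region, chr4:6990130-6991566, was broad, with 5 summits and a fold of 8.27. It covers the 1 annotated protein-coding start. Intron 1, which is 148.0 kb long, held 13 regions spread from 1.9 to 131.6 kb from the 5' end, with folds between 3.34 and 13.4. Intron 3 held 4, with folds of 16.7 at 174.2 kb, 8.37 at 199.3 kb, 10.5 at 219.4 kb and 15.6 at 243.0 kb. The highest fold of the locus, 19.1, was at chr4:6681738-6682504, beyond the 3' end, and exon 8 at 302.7 kb held a region of 16.5, just under the 16.7 in intron 3. Both are nearer to the start of Nsmaf, a gene of the sphingomyelinase pathway, and the region in exon 8 is 657 bp from the start of the antisense transcript Gm11802. Among the 735 genes of at least 250 kb the median number of summits in the gene was 0, 387 had none, and 10 had more than Tox.

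Tox2 (ENSMUSG00000074607.11) lies on the plus strand of chromosome 2 at chr2:163203125-163324170, is 121.0 kb long and had 7 regions. Its promoter region, chr2:163202666-163204274, was the widest of the 64 at 1609 bp, with 5 summits. Its fold of 11.5 was the highest of the 8 promoter regions of the 6 genes. Beyond the promoter the folds in the gene declined with distance, from 19.1 in intron 1 at 26.1 kb (chr2:163228861-163229682) to 14.8 in intron 2 at 50.4 kb and 14.1 in intron 3 at 82.8 kb. The first of these lay 3407 bp from the nearest of a pair of inner starts, which themselves had no region within 1000 bp. Outside the gene the values were lower: 7.28 and 9.71 at 38.3 and 36.5 kb upstream, and 8.85 at 127.8 kb, past the 3' end. A start near the 3' end of the gene was 10386 bp from the nearest region.

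Most of the 64 regions lay away from promoters. The share was 56 of 64 (87.5%, exact binomial 95% interval 76.8 to 94.4, which covers counting error only), against 63.3% of all 29415 regions. These shares were not matched for the number of regions per gene, with a median of 8 for the 6 genes and 1 over all genes. By class 31 were intronic, 24 intergenic, 8 at promoters and 1 in an exon. The regions were not tall: the median fold was 9.88, against 13.1 over all regions, and 18 of 64 (28.1%) were above that overall median. The gap was widest at promoters, with a median of 8.15 for the 8 regions against 15.4 for all promoter regions. In introns it was 10.1 against 11.4, and between genes 10.7 against 12.6. Every one of the 8 promoter folds was below 15.4, and Tox2, the highest, exceeded 27.7% of all promoter regions. By −log10 p the order differed away from promoters, where the 56 regions had a median of 82.5 and all such regions 68.8. The fold is set against a background that the sources used here do not define. In a merged region the fold and the −log10 p can also come from different peaks. Why the 2 measures ranked regions differently was not tested.

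**Figure D2:**
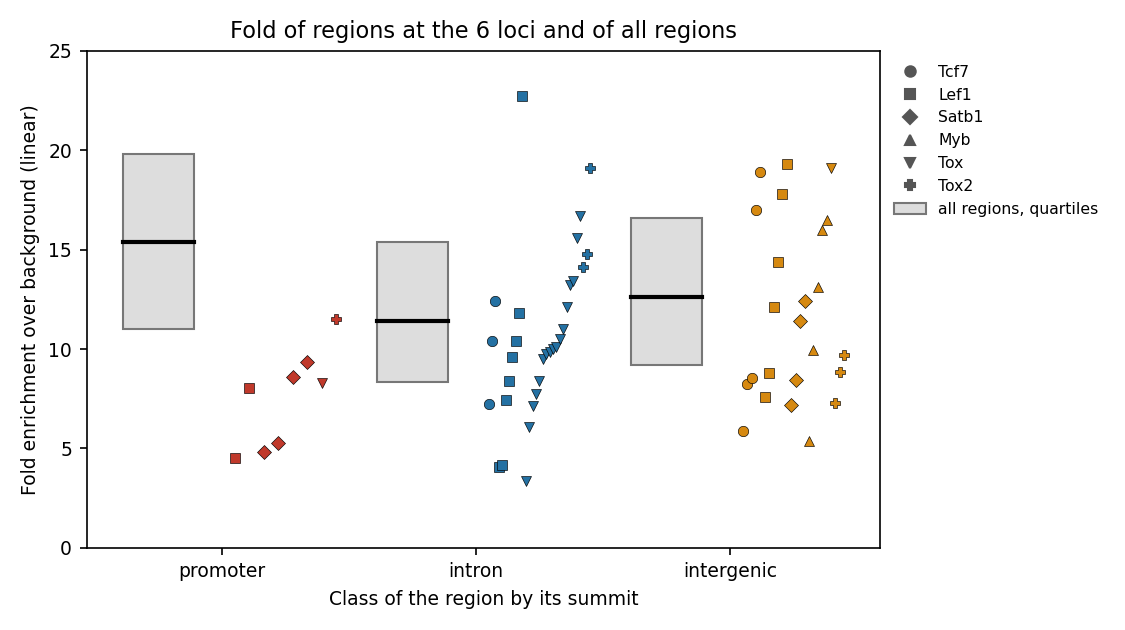
Fold enrichment over background (linear, vertical axis) of the regions of the 6 genes by class of the summit (horizontal axis), 1 symbol per region and 1 shape per gene; the horizontal position within a class only spreads the symbols, and the 1 exonic region of Tox is not drawn. Grey boxes span the quartiles and black lines mark the medians of all regions of the class, and all 8 promoter symbols lie below the promoter median of 15.4.

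The 6 loci held nearly as many weaker regions as reproducible ones. The pseudoreplicated list gave 126 regions by the same rule, of which 63 overlapped no thresholded region. Such an excess was general, since the whole pseudoreplicated list held 52972 regions and the thresholded list 29415. The 63 were 22 at Tox, 10 each at Lef1, Satb1 and Myb, 6 at Tcf7 and 5 at Tox2. Their median folds ran from 3.23 at Myb to 4.92 at Satb1. The highest were in intron 9 of Satb1 (fold 9.07), a part of the gene with no thresholded region, and 43.4 kb upstream of Satb1 (8.73). In this list all 6 genes had a promoter region, against 55.3% of all genes. The bounds of the thresholded regions were found unchanged in the pseudoreplicated list for 63 of the 64, the exception being the intron 3 region of Tox with a fold of 10.5. How often this held over all regions is not reported here.

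Extending the distance from 100 to 200 kb added 4 regions upstream of Lef1 and 2 upstream of Tox. One of those of Lef1, chr3:130947009-130947825 at 163.0 kb, had a fold of 21 and would be the second highest of the locus. Another, with a fold of 17.2 at 173.3 kb, has its summit within 1000 bp of a start of the noncoding gene 2010110G14Rik. The other two had 7.12 and 13.5, and those of Tox 9.42 and 11. Within the main rule 7 of 64 regions (10.9%) lay within 1000 bp of a noncoding start, against 9.45% of all regions.

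TCF/LEF strings were found within 50 bp of the summit in 7 of 64 regions (10.9%, interval 4.51 to 21.2), against 7.16% of all regions. Away from promoters the shares were 12.5% (5.18 to 24.1) and 9.22%. In both cases the interval contains the share of all regions, so no enrichment was detectable with this number of regions. RUNX strings occurred in 10 of 64 regions (15.6%, 7.76 to 26.9) against 6.35%, and away from promoters 9 of 56 (16.1%, 7.62 to 28.3) against 8.94%. The first interval leaves out the overall share and the second contains it. All these intervals cover counting error only. They take regions of the same gene as separate draws and were not adjusted for the 16 strings searched. The regions with a RUNX string were 4 of Tox, 3 of Lef1, 2 of Satb1 and 1 of Tox2, among them the tallest of Lef1 and of Tox2. MYB strings occurred in 13 regions (20.3%, against 15% of all), 6 of them at Tox. AP-1 strings occurred in 6 (9.38% against 6.35%, and away from promoters 10.7% against 8.75%). ETS strings occurred in 11 (17.2% against 12.8%), but away from promoters the order turned, with 16.1% against 16.5%. No region held the NR4A string, which 0.483% of all regions had, and the exact interval for 0 of 64 is 0 to 5.6%.

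**Figure D3:**
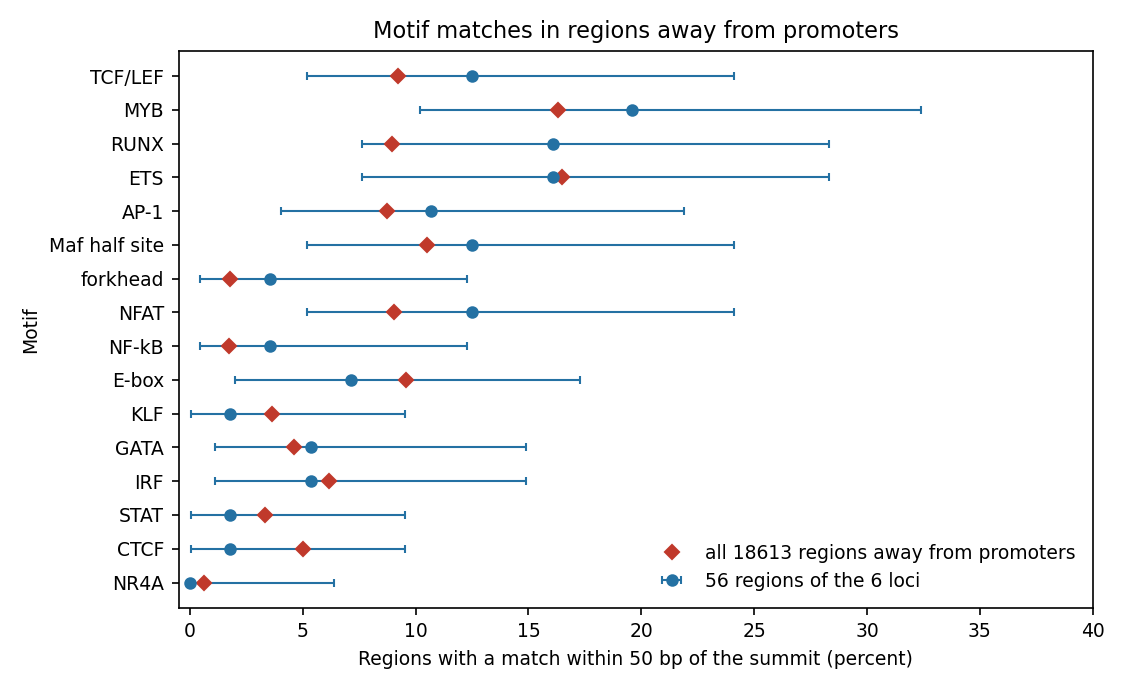
Share of regions with a match within 50 bp of the summit (percent, horizontal axis) for 16 consensus strings (vertical axis). Blue points are the 56 regions of the 6 genes away from promoters with exact binomial 95% intervals, red diamonds all 18613 regions away from promoters, and every diamond lies inside the interval of its string.

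The paralogs of the 6 factors, read by the same rule, had a median of 2 regions. This median was 8 for the 6 genes and 1 over all genes. Tcf7l1 had 2 and Tcf7l2 had 4, none of them at a start of Tcf7l2. Tox3 had none, Tox4 and Mybl2 had 2 each and Mybl1 had 1. Promoter regions were found at Tcf7l1, Mybl1, Mybl2 and Tox4, and none of the paralogs named reached 5 regions, while each of the 6 genes did. Within the TCF/LEF family Tcf7 and Lef1, with 8 and 16 regions, thus stood above both of the others.

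Partners of TCF1 and LEF1 in Wnt signalling had a median of 2 regions. That was below the median of the 6 genes, 8, and above that of all genes, 1. Of 31 genes, 22 (71%) had a promoter region, against 49.7% of all genes. Ctnnb1, which encodes beta-catenin, had 1 region with a fold of 9.41. The most, 5 each, were at the kinase gene Gsk3b, the coactivator gene Bcl9l, the corepressor gene Tle3 and the ligand gene Wnt10a, the last without a promoter region. No region was found at Pygo1, Ctbp2, Lrp5, Fzd1 or Nkd1, which encode a beta-catenin coactivator subunit, a corepressor, 2 receptors and an inhibitor of the pathway.

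Genes associated with T cell quiescence had counts more like those of the 6 genes. Of 19, 18 (94.7%) had a promoter region. Over all genes the share was 49.7%. The median was 7 regions, and 14 of the 19 had 5 or more, against 7.69% of all genes. The highest counts were 32 at Bach2 and 29 at Foxp1, which encode repressors of effector differentiation, 19 at the antiproliferative gene Btg1 and 15 at S1pr1, the receptor for exit from lymph nodes. The 6 factors of effector Treg cells all had a promoter region, with 4 to 14 regions and a median of 8.5: Irf4 had 14, Rora 12, Prdm1 9 and Gata3 8. The median for Tcf7, Lef1, Satb1, Myb, Tox and Tox2 was 8. The lists differ in gene length and in their neighbours, and they were not tested against each other.

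**Figure D4:**
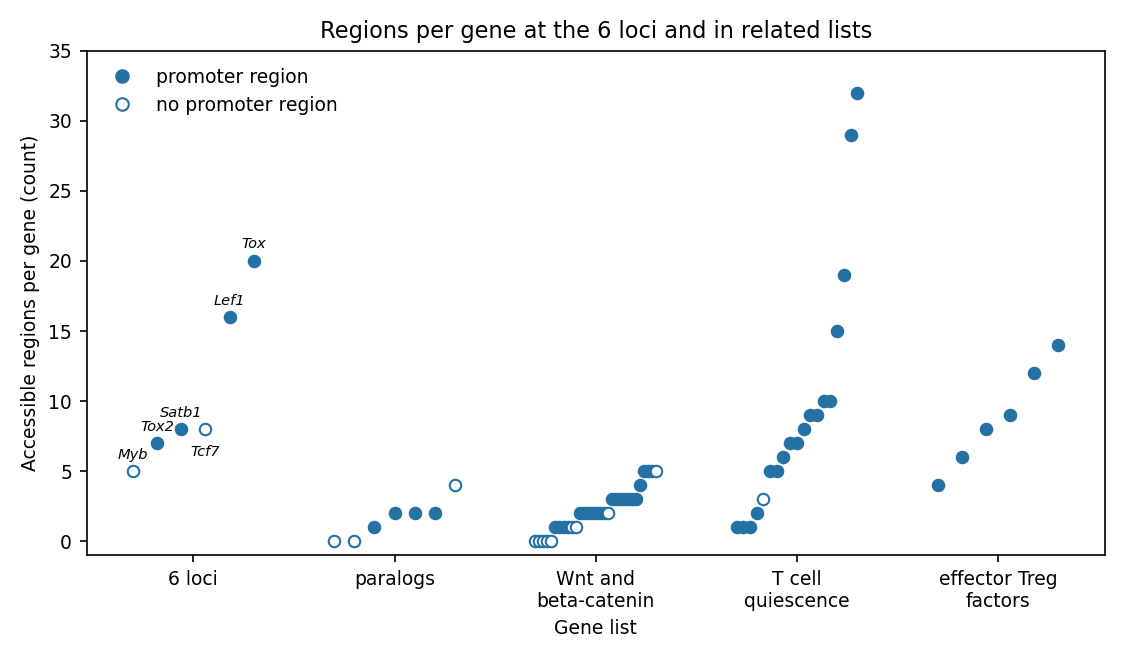
Number of accessible regions per gene (vertical axis) for the 6 genes, which are named, and 4 related lists (horizontal axis), 1 point per gene, filled where the gene had a promoter region. Tcf7 and Myb are the open points among the 6 genes, paralogs reach at most 4 regions, and quiescence genes run from 1 to 32.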

How the data were processed

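ATAC-seq libraries from 2 technical replicates of 1 biological replicate were read from the authors' peak lists on mm10. The text files that accompany the samples say that the authors derived 3 lists from 1 alignment: pseudoreplicated, IDR-thresholded and IDR-ranked peaks. Both samples share these lists, which were therefore taken to pool the libraries, and 0 columns of values are labelled by library. No label or header used here names the aligner, caller, filters, Tn5 shift, IDR threshold or the background of the fold. Each deposited peak carries a fold enrichment (a linear ratio) and a −log10 p-value from the authors' caller; the deposited score follows the −log10 of the global IDR. Units were read off the columns and their ranges, and the fold and −log10 p serve only to describe and rank peaks within a list.

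Overlapping or touching peaks of the thresholded list (58138 peaks on 21 chromosomes) were merged into 29415 regions; the peak of greatest fold gave the summit and the fold, and the greatest −log10 p among the merged peaks was kept. Starts, genes and features came from GENCODE M21 on GRCm38, and intron and exon numbers refer to the longest protein-coding transcript. CpG ratios were taken over the 500 bp to each side of a gene's 5' end. Strings were searched in 101 bp, both strands, in GRCm38. Intervals are exact binomial (SciPy 1.17.1, Python 3.11.15). The assignment and motif code was checked on simulated data. Genes named are the 6, their paralogs, and from the other lists genes without a region and up to 4 with the most; Ctnnb1 and single markers were added after their values were seen, and some genes of the lists are not reported here. The members and lists were chosen with earlier results of these data known. Alternatives were other lists, distances, starts, windows and strings; RefSeq starts and strings away from promoters were added after seeing the data.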

Additional observations from a re-analysis of the deposited data

How the results depend on the processing

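Of the recomputed summary values, 34 stayed within 1.5 times the main count or within the main 95% interval and 11 did not. This tally and the one by gene below include the ranked list at a global IDR at or below 0.05. That list is nearly the thresholded one (29464 regions against 29415), so its unchanged values are no independent check. The 34 also include the pseudoreplicated list's 6 genes with a promoter region against 4, exactly at the limit, which adds Tcf7 and Myb. The pseudoreplicated list gave 126 regions with a median fold of 6.06. The upper 50% of regions by fold left 18 regions, 0 genes with a promoter region, 100% of regions away from promoters, a median fold of 16.5 and TCF/LEF strings in 0% of regions; a filter on fold removes low folds by construction. Summits counted singly gave 110 with a median fold of 7.53. With the 5' end of the gene record as the only start, 95.4% of regions lay away from promoters and 3 genes (Satb1, Tox and Tox2) kept a promoter region. Searching the whole region gave TCF/LEF strings in 39.1%, against 36.1% of all regions. With RefSeq starts the same 4 genes had a promoter region. By gene, 34 recounts stayed within 1.5 times the main count and 20 did not, among them Satb1 to 5 and Myb to 3 within 50 kb and Tox to 11 by nearest start alone. No paired analysis was possible because the 2 libraries form 1 group and the lists hold no value by library, and for the same reason no library could be left out. Depth is unknown and limits what the absence of a region can show.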
